A study of Drosophila melanogaster with 6 samples.

Results

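RNA recovered with antibodies to 2 chromatin regulators of the Drosophila melanogaster ovary was compared directly, Lsd1 against Bre1. The 4 libraries of the anti-Lsd1 and anti-Bre1 RNA immunoprecipitations (RIP) were taken from the 6 of the series, and the 2 IgG libraries took no part in the ratios. Bound RNA and background RNA therefore cannot be told apart in a ratio. The flies were Oregon-R, a wild-type strain, taken as adult females within 12 hours of eclosion, and nothing in the labels gives a transgene or a treatment. Each of 2 experiments began with the ovaries of about 200 pooled females, whose lysate was shared out among the antibodies, so Lsd1 and Bre1 were compared within an experiment. RNA was read without selection for polyadenylated tails and without strand, so overlapping genes on opposite strands cannot be told apart. In pooled lysate, fewer cells of a type and less bound RNA per cell cannot be told apart either.

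Lsd1, encoded by Su(var)3-3, removes methyl groups from histone H3 and works with the corepressor CoRest at genes that are to be silenced and at heterochromatin. Bre1 is an E3 ligase that places ubiquitin on histone H2B, a mark that accompanies transcription by RNA polymerase II and the Paf1 complex. In the ovary both act in the germline and in the somatic cells that surround it, and RIP asks which RNAs come down with each protein.

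The test took in genes with 2 or more of the 4 libraries at 1 FPKM (experiment 1) or 1 RPKM (experiment 2) or above, 5502 in all. Scale factors were median ratios taken from 1033 genes, and ratios are differences of log2(scaled value + 1), which understates the change of low genes. Depth went opposite ways in the 2 experiments. Outside nuclear ribosomal RNA, experiment 1 held 1617446 fragments with Lsd1 and 327817 with Bre1, and experiment 2 held 1625250 exon reads with Lsd1 and 7471961 with Bre1. An equal level therefore stood for 7.11 Lsd1 fragments per Bre1 fragment in experiment 1 and for 0.185 Lsd1 reads per Bre1 read in experiment 2. A gene was called informative where, at equal scaled levels, each library would hold at least 10 fragments or reads, and 3943 genes were. Ribosomal RNA took 88.6% of exon reads with Lsd1 (95% Clopper-Pearson interval 88.6 to 88.7) and 76.2% with Bre1 (76.2 to 76.2) in experiment 2, and such intervals cover counting error only.

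All 9 germline markers were at 1 or more with Lsd1 in experiment 1 and with Bre1 in experiment 2, against 6 with Bre1 in experiment 1 and 4 with Lsd1 in experiment 2. Of 4 nervous system markers and 4 hemocyte markers none passed the filter, and 1 of 5 gut markers and 1 of 6 fat body markers did. Lsp1alpha of the fat body and Amy-p of the gut were at 0 in all 4 libraries. Germline and follicle cell markers were thus present in every library.

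The experiments placed most genes on opposite sides. Of the 5502 genes, 3247 (59.0%) had a higher ratio than 0 in experiment 1 and a lower one in experiment 2, and 493 (8.96%) had the reverse. Both ratios were above 0 for 550 genes (10%) and below 0 for 1143 genes (20.8%), so 30.8% shared a sign, and 69 genes (1.25%) had a ratio of 0. The median ratio was 0.38 in experiment 1 and -0.62 in experiment 2 (SD over genes 0.87 and 0.90). Across genes, which are not independent replicates and share the library, the ratios of the experiments had a Pearson correlation of -0.30 and a Spearman correlation of -0.32 (n = 5502). Among informative genes, 373 (9.46%) were higher and 923 (23.4%) lower with Lsd1 in both, and 56.0% were higher in experiment 1 and lower in experiment 2. With 2 experiments, the exact permutation test of a single gene has no p under 0.5.

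No gene passed limma at an adjusted p of 0.05, higher (0.0%) or lower (0.0%), with the experiment as a block. At an unadjusted p under 0.05 limma gave 32 genes (0.582%), edgeR on counts called 0 genes, and DESeq2 on counts called 2, mt:srRNA and udd. Only 2 lysates stand behind these p-values, and technical differences can add to the spread. In the main limma fit the block took out differences between lysates. What was left was the disagreement of the Lsd1 over Bre1 ratio between the 2 experiments. All prior weight lay on the trend, so this disagreement was pooled over genes of similar abundance. The limma SE and p-value of a gene therefore do not reflect the spread of its own 2 ratios. Fits without 1 library had no block, so the lone library of an antibody was set against both libraries of the other, across experiments and units. The lowest adjusted p over the alternatives given below for snf, Arc1, hpRNA:CR32205 and snoRNA:Tudor-SN-a came from such fits. Those p-values do not compare the antibodies within an experiment. Results for single genes and groups are therefore given as descriptions of size and sign.

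**Figure D1:**
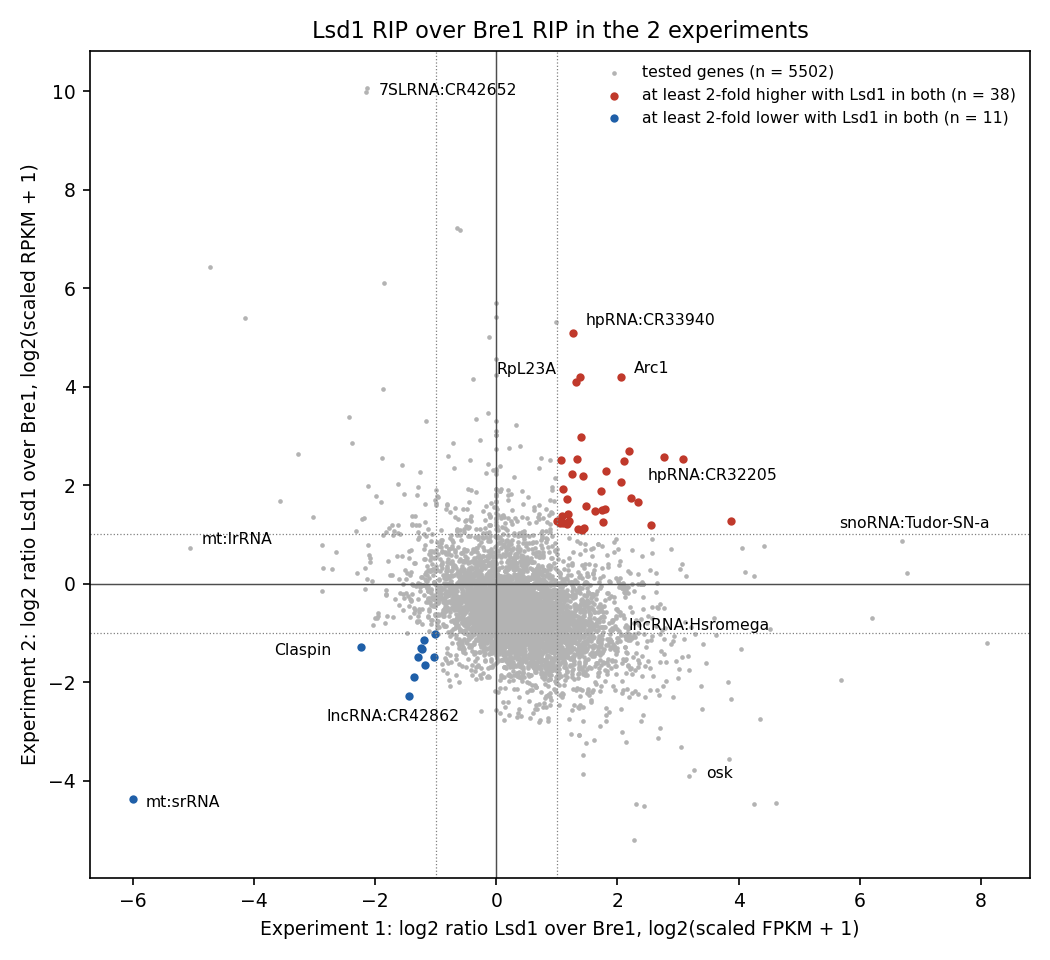
Log2 ratio of Lsd1 over Bre1 in experiment 1 (x axis) against experiment 2 (y axis), 1 point per tested gene, with dotted lines at 2-fold. The cloud lies mostly to the right of and below 0, with 38 genes at least 2-fold higher (red) and 11 at least 2-fold lower (blue) with Lsd1 in both experiments, and with 7SLRNA:CR42652 and osk far out in opposite corners.

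At least 2-fold higher with Lsd1 in both experiments were 38 genes (0.691%), and at least 2-fold lower were 11 (0.2%). Of informative genes they were 31 (0.786%) and 10 (0.254%). The 38 held 12 cytoplasmic ribosomal protein genes, the 3 hairpin RNAs, snf, Arc1, the muscle genes Mlc2 and wupA, and the yolk protein gene Yp1. The 11 held the small mitochondrial ribosomal RNA, lncRNA:CR42862, Sas10, Noc1, Claspin, CG45084, anox, cass, ewg, PPP4R2r and Ehbp1. The zero line mattered for these lists. As deposited, without scaling, the median ratio was 1.75 in experiment 1 and -1.39 in experiment 2, against 0.38 and -0.62 after scaling. Of the genes with a common sign, 32.5% were higher with Lsd1, against 79.8% as deposited, 42.1% after quantile normalization, 48.5% after upper quartile scaling and 50% with each experiment centred. Under 8 other scalings and counts, among them the values as deposited, 16 of the 38 and 2 of the 11 had both signs unchanged. Those 2 were mt:srRNA and Claspin. Of genes named below with smaller ratios, SmB, yl, grk, trol, CycT, mt:CoII, bt and gbb each lost their common sign under at least 1 scaling or count alternative other than the values as deposited. Just inside the 2-fold line were Pglym78 (1.01 and 1.28 in experiments 1 and 2) and Ehbp1 (-1.01 and -1.01), and just outside it snoRNA:U3:9B (0.98 and 5.31) and Prp39 (-1.47 and -0.998).

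Hairpin RNAs were higher with Lsd1. They are long inverted repeats that Dicer-2 cuts into endogenous small interfering RNAs. All 3 that were tested were higher with Lsd1 in both experiments, also under each of the 8 alternatives, and all 3 by at least 2-fold in the main setting. Of all tested genes 550 (10%) were higher in both and 0.691% by at least 2-fold. The count of 550 lay between 95 and 1049 over those alternatives. hpRNA:CR32205 (FBgn0052205, chromosome 3L, 19420390 to 19424183, dm6) had scaled values of 18.6 with Lsd1 and 1.86 with Bre1 in experiment 1, and 6.49 and 0.254 in experiment 2. Both Bre1 libraries lay below both Lsd1 libraries, and the log2 ratios were 2.78 and 2.58 (fitted change 2.68 ± 0.836 SE, limma adjusted p = 0.748, from 0.00184 to 1.00 over the alternatives). hpRNA:CR32207 (3L, 19477329 to 19478720) had 28.2 against 5.23 and 11.6 against 2.79, ratios of 2.23 and 1.74. hpRNA:CR33940 (3L, 19486745 to 19488439) had 124 against 51.1 and 127 against 2.79, ratios of 1.26 and 5.08. Its Lsd1 libraries were nearly equal, and the 2 experiments differed in the Bre1 library. All 3 lie within the same stretch of chromosome arm 3L, CR33940 overlaps CG32212, and of the 498 reads of CR32205 with Lsd1 in experiment 2, 215 were unique.

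Among protein-coding genes, snf and Arc1 were far apart in both experiments. snf (FBgn0003449, chromosome X, 5309242 to 5310501) encodes the U1 and U2 snRNP protein that female germ cells need to splice Sxl. Its scaled value was 5.26 with Lsd1 and 0.373 with Bre1 in experiment 1, and 24.0 and 2.88 in experiment 2, ratios of 2.19 and 2.69 (fitted 2.44 ± 0.85 SE, limma adjusted p = 1.00, from 0.00277 to 1.00 over the alternatives). The Bre1 value of experiment 1 came from 1 fragment against 100 with Lsd1, a scaled ratio of counts of 14.1 (95% interval 2.47 to 561), while experiment 2 had 297 against 459 reads. Of the 12 tested genes for snf and the Sm proteins, which form the rings on the spliceosomal snRNAs, 4 were higher and 1 lower in both. These were 33.3% and 8.33%, against 10% and 20.8% of all genes, and 8 of the 12 were informative. The counts became 3 and 1 after quantile normalization, 2 and 2 after upper quartile scaling, 2 and 1 with centring and 2 and 2 without the length trend. In those settings 875, 988, 1049 and 965 of all 5502 genes were higher in both, against 550 in the main setting. SmD1 had ratios of 1.34 and 1.12, on 1 Bre1 fragment in experiment 1 (ratio of counts 5.91, 1.00 to 239), and SmB had 0.37 and 1.03.

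Arc1 (FBgn0033926, chromosome 2R, 14357927 to 14360297) encodes a capsid protein descended from a retrotransposon Gag that can carry its own messenger RNA between cells. It stood at 21.5 with Lsd1 and 4.41 with Bre1 in experiment 1, and at 24.1 and 0.379 in experiment 2. The Lsd1 libraries were alike and both lay above both Bre1 libraries, with ratios of 2.06 and 4.19 (fitted 3.12 ± 0.905 SE). Its limma adjusted p was 0.413, from 0.0104 to 1.00 over the alternatives. In the fit on all 6 libraries, which takes the spread from IgG too, Arc1 was one of 8 genes called (adjusted p = 0.0216). The fragments behind Arc1 were 1455 against 42, and the reads 1309 against 111, all of them unique. MrgBP, whose product belongs to the Tip60 chromatin complex, had ratios of 1.42 and 2.18, on 2 Bre1 fragments in experiment 1 (ratio of counts 5.98, 1.60 to 50.2). MrgBP overlaps CG13751 on the other strand, which had 3.08 and 2.53, and reads of the pair cannot be told apart.

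**Figure D2:**
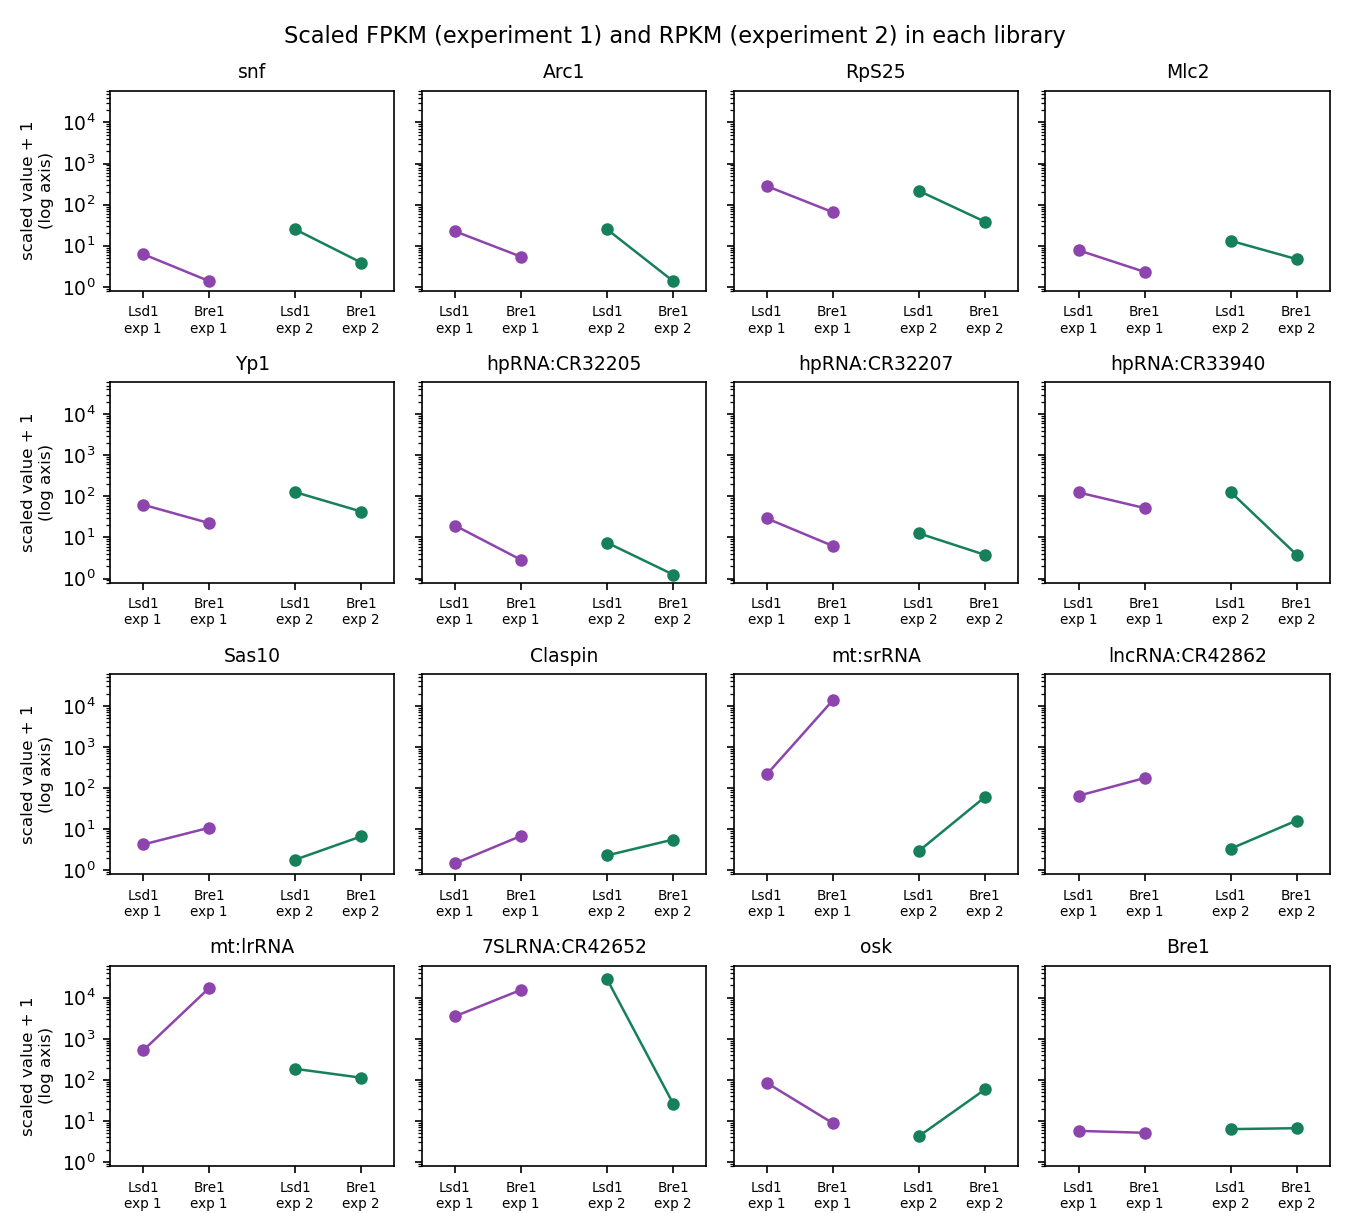
Scaled value plus 1 on a log axis for 16 genes in the 4 libraries, Lsd1 and Bre1 of an experiment joined by a line (purple, experiment 1, FPKM; green, experiment 2, RPKM). Lines slope down from Lsd1 to Bre1 in both experiments for the first 8 genes and up in both for Sas10, Claspin, mt:srRNA and lncRNA:CR42862, whereas mt:lrRNA, 7SLRNA:CR42652 and osk cross.

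Cytoplasmic ribosomal protein genes lay mostly on the Lsd1 side. Of 86 tested, 48 were higher and 1 was lower with Lsd1 in both (55.8% and 1.16%, against 10% and 20.8% of all genes). At least 2-fold higher in both were 12, as were 0.691% of all genes. Another 29 were higher in experiment 1 and lower in experiment 2, as were 59.0% of all genes, and 8 had the reverse, as had 8.96%. The median ratio was 1.57 in experiment 1 and 0.39 in experiment 2, where all genes had 0.38 and -0.62. The count of 48 became 51 under upper quartile scaling, 50 with each experiment centred, 39 after removal of the trend on length, 21 under quantile normalization and 17 in the values as deposited. RpS25 (3R, 11215028 to 11216287) had 282 with Lsd1 against 64.5 with Bre1 in experiment 1, and 216 against 37.5 in experiment 2. RpL35A had 115 against 22.0 and 63.0 against 19.1. In both genes each Lsd1 library exceeded the Bre1 library of its experiment, by log2 ratios between 1.67 and 2.49. RpL23A had 192 against 76.6 and 940 against 54.0, the largest ratio of experiment 2 among the genes named here for this group (4.10), and it overlaps the snoRNA host Uhg7. Among the same named genes RpL27 had the largest in experiment 1 (2.55, with 1.19 in experiment 2). Over all 86 genes the ratios ran from -2.31 to 5.68 in experiment 1 and from -5.21 to 4.15 in experiment 2. RpL23 went the other way, with 166 against 182 and 26.3 against 99.2, ratios of -0.13 and -1.88. These genes are short, with a median exon length of 935.5 bases, and of all protein-coding genes between 500 and 1000 bases 18.4% were higher in both. They are also abundant, and of the 117 genes with a mean scaled level of at least 50, 58 (49.6%) were higher in both. The part of length and level in the ribosomal protein count was not tested.

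Nuclear genes of oxidative phosphorylation had 21 of 67 higher and 2 lower in both, with medians of 1.24 and -0.33. The ATP synthase subunit gene ATPsynE had 20.02 against 5.07 and 20.2 against 6.45 (ratios 1.79 and 1.51). The complex I genes ND-18 and ND-24 had ratios of 1.77 and 1.26 and of 1.11 and 1.24, on 3 Bre1 fragments for ND-18 in experiment 1 (ratio of counts 5.25, 1.75 to 25.8). Mitochondrial ribosomal proteins had 7 of 67 higher and 2 lower in both, the proteasome 8 of 33 and 0, and translation factors 6 of 42 and 2. eEF1delta, an elongation factor subunit, was among the 2, with -0.33 and -1.94. Against 10% of all genes higher in both, the shares were 31.3% for oxidative phosphorylation, 24.2% for the proteasome, 14.3% for translation factors and 10.4% for mitochondrial ribosomal proteins. Lower in both were 2.99%, 0.0%, 4.76% and 2.99% in that order, against 20.8% of all genes. All 4 groups had medians above 0 in experiment 1 and below 0 in experiment 2.

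Genes of the muscle sheath, the contractile layer around the ovarioles, were higher with Lsd1 in both for 7 of 14 and lower for 1. These were 50% and 7.14%, against 10% and 20.8% of all genes. Another 4, Mhc, Tm1, Tm2 and up, were lower in experiment 1 and higher in experiment 2, and 2, Mp20 and Zasp66, had the reverse. The medians of the list were 1.04 and 1.15. No other list with at least 8 tested genes had medians above 1 in both experiments. Mlc2, a myosin light chain, had 6.77 against 1.31 and 12.2 against 3.71 (ratios 1.75 and 1.49). wupA, which encodes troponin I, had 4.94 against 1.75 and 15.3 against 3.34 (1.11 and 1.91), and TpnC73F, a troponin C, had ratios of 0.97 and 0.82. As deposited, without scaling, the 6 muscle markers summed to 159 against 37.4 FPKM in experiment 1 and to 72.7 against 71.1 RPKM in experiment 2. These sums are not on the scale of the ratios above. A log2 ratio as deposited less the scaled one was 2.31 in experiment 1 and -1.78 in experiment 2, before the pseudocount. The part of muscle content in the ratios of the muscle genes was not tested. The giant gene bt, which encodes a titin-like protein, was lower in both, with -0.20 and -1.01. The yolk protein genes, made by follicle cells in the ovary, were also on the Lsd1 side. Yp1 had 61.7 against 21.3 and 126 against 41.8, ratios of 1.49 and 1.57. Yp3 had ratios of 0.89 and 1.22 and Yp2 0.82 and 0.84, and the fitted change of Yp2 turned negative under quantile normalization. The yolk receptor gene yl, which the oocyte expresses, had -1.13 and -0.14. Follicle cell genes other than yolk had 0 of 13 higher and 3 lower in both (23.1%, against 20.8% of all genes), among them N (-0.81 and -1.41) and Egfr (-0.39 and -0.70). Another 7 of the 13 were lower in experiment 1 and higher in experiment 2, as were 8.96% of all genes. Basement membrane genes had 0 of 8 higher and 4 lower in both (50%, against 20.8% of all genes). The 4 included trol, the perlecan gene (-1.31 and -0.79), and LanB1, a laminin chain (-0.55 and -1.38). The follicle cell and basement membrane genes are long, with median exon lengths of 6119 and 6425 bases.

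**Figure D3:**
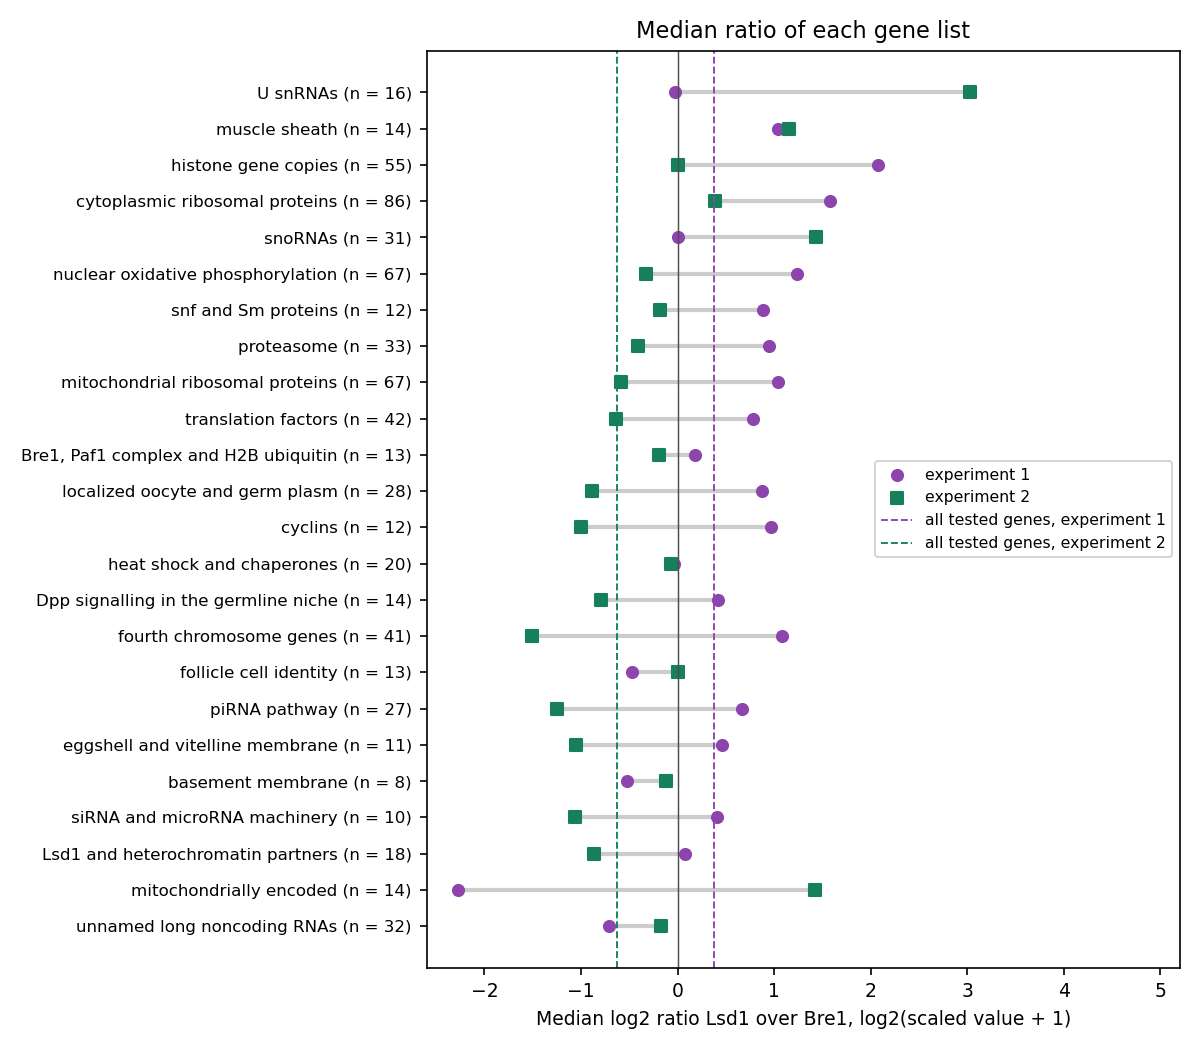
Median log2 ratio of Lsd1 over Bre1 in experiment 1 (purple circles) and experiment 2 (green squares) for each list with at least 8 tested genes (n in brackets), with dashed lines at the medians of all tested genes. The 2 medians of the muscle sheath list (1.04 and 1.15) nearly coincide, whereas those of the mitochondrially encoded genes lie at -2.28 and 1.42.

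On the Bre1 side the small ribosomal RNA of the mitochondrion stood apart. mt:srRNA (FBgn0013688, mitochondrial genome, 14131 to 14916) had scaled values of 215 with Lsd1 and 13768 with Bre1 in experiment 1, and 1.95 and 59.9 in experiment 2. The ratios were -5.99 and -4.37 (fitted -5.18 ± 1.61 SE, limma adjusted p = 0.748, from 7.02e-06 to 1.00 over the alternatives). It was called by limma without the trend (adjusted p = 7.02e-06) and by DESeq2 (adjusted p = 0.00012). The fragments were 3756 against 33905 and the reads 35 against 5807. Its large partner mt:lrRNA did not share this pattern, with 520 against 17387 in experiment 1 but 185 against 112 in experiment 2, ratios of -5.06 and 0.72. Large over small stood at 4.77 with Lsd1 and 2.49 with Bre1 in experiment 1, and at 160 and 3.15 in experiment 2, so the Lsd1 library of experiment 2 departed from the other 3. Both RNAs together made up 36.1% of the fragments outside nuclear ribosomal RNA with Bre1 in experiment 1 (95% Clopper-Pearson interval 36.0 to 36.3), against 1.34% (1.32 to 1.36) with Lsd1. Over the 1589085 and 7327348 reads of the genes found in both experiments, they made up 0.355% with Lsd1 (0.346 to 0.365) and 0.329% with Bre1 (0.325 to 0.333) in experiment 2. Of the 14 tested mitochondrially encoded genes, 9 were lower in experiment 1 and higher in experiment 2, 2 were lower in both and 2 higher in both, among them mt:CoII, a cytochrome oxidase subunit (0.82 and 1.51). Of all genes, 8.96% were lower in experiment 1 and higher in experiment 2, 20.8% lower in both and 10% higher in both.

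lncRNA:CR42862 (3L, 224106 to 230964) had 64.4 against 176 and 2.35 against 15.3, ratios of -1.43 and -2.28. The list it belongs to held long noncoding, antisense and a few other RNAs, most of them known by a number only, with lncRNA:Hsromega and IBIN among the 32 tested of 2291. In both experiments 11 of the 32 were lower, lncRNA:CR42862 alone by at least 2-fold, and 1 was higher, the small RNA sncRNA:CR43603. Those shares were 34.4% and 3.1%, against 20.8% and 10% of all genes. The count of 11 became 10 after quantile normalization, 11 after upper quartile scaling, 6 without the length trend, 2 with centring and 2 as deposited. It overlaps CG33229. Of 6 tested hosts of small nucleolar RNAs, 2 were lower in both and 0 higher, and the 4 others had opposite signs. The share lower in both was 33.3% of these hosts, against 20.8% of all genes. Uhg4 had 16.2 against 30.5 in experiment 1 and 0 against 2.36 in experiment 2, where 0 Lsd1 reads against 143 made it at least 8.84-fold lower at a floor of 3 counts per library. Uhg2 had 0 against 168 reads, at least 10.4-fold lower, and -0.77 in experiment 1.

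The 9 coding genes at least 2-fold lower with Lsd1 included 2 of ribosome assembly and 1 of the replication checkpoint. Sas10, known from yeast for ribosomal RNA processing (X, 5317409 to 5319071), had 3.25 with Lsd1 and 9.89 with Bre1 in experiment 1 and 0.815 and 5.72 in experiment 2, ratios of -1.36 and -1.89. It lies beside Rnp4F and overlaps it. Noc1, known from yeast for assembly of the large ribosomal subunit, had 1.73 against 5.35 and 3.20 against 9.61 (-1.22 and -1.34). Claspin, an adaptor of the replication checkpoint (3L, 4313483 to 4318608), had 0.474 against 5.90 and 1.31 against 4.61 (-2.23 and -1.28). Of these 3 genes, Claspin alone stayed below 0 in both experiments in the values as deposited. The transcription factor gene ewg had -1.19 and -1.15, the phosphatase 4 subunit gene PPP4R2r -1.03 and -1.48, and cass -1.18 and -1.65. The splicing gene Prp39 had -1.47 and -0.998, and su(sable), which encodes a nuclear RNA-binding protein, -1.10 and -0.97. CG45084 (-1.29 and -1.50) lies in BicC and had 0 unique reads, so its value cannot be told apart from that of BicC. CG11444, on the Lsd1 side with 1.73 and 1.88, likewise had 0 unique reads and overlaps lncRNA:CR32773.

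Small RNAs gave little that held in both experiments. Of 31 tested snoRNAs, 4 were higher (12.9%, against 10% of all genes) and 0 lower in both, but 23 had a ratio of 0 in an experiment. snoRNA:Psi28S-291 (1.18 and 1.41) lies in RpL3, snoRNA:Tudor-SN-a (6.70 and 0.87) in Tudor-SN and snoRNA:Psi28S-2566 (2.05 and 2.07) in CG3902, and none had a unique read in experiment 2. snoRNA:Tudor-SN-a had 0 Bre1 fragments in experiment 1 against 265, at least 12.4-fold, and a limma adjusted p of 0.0659, from 4.91e-10 to 1.00 over the alternatives. RNaseMRP:RNA (0.33 and 3.23) had opposite signs under quantile, upper quartile and centred scaling, without the length trend, and in edgeR and DESeq2. Of 16 U snRNAs, 2 copies of U2 (12.5%, against 20.8% of all genes) were lower in both, snRNA:U2:38ABa (-1.95 and -0.60) and snRNA:U2:14B (-1.82 and -0.22). Neither had both signs unchanged under quantile, upper quartile or centred scaling, with unique reads, or in edgeR and DESeq2. scaRNA:MeU5-C46 (-0.80 and -1.62) lies in CG1142 and had 0 unique reads.

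Some abundant RNAs had large ratios of opposite sign, and those named here were chosen after their values were seen. 7SLRNA:CR42652, 1 of 2 near-identical copies of the signal recognition particle RNA, had 3526 with Lsd1 against 15557 with Bre1 in experiment 1 and 28330 against 25.6 in experiment 2, ratios of -2.14 and 10.06. RNaseP:RNA had -0.12 and 5.01, and snRNA:U11, of the minor spliceosome, -1.86 and 3.94. 7SLRNA:CR42652 and RNaseP:RNA had 0 unique reads in experiment 2, and with unique reads alone their fitted changes turned from positive to -1.07 and -0.060. lncRNA:Hsromega, a nuclear heat shock RNA, had 1.97 and -0.51. osk, whose messenger RNA builds the germ plasm at the posterior of the oocyte, had 83.9 against 7.83 in experiment 1 and 3.24 against 57.4 in experiment 2, ratios of 3.26 and -3.79. Its 4 values thus crossed completely, on 6914 against 92 fragments and 220 against 21038 reads.

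Most genes of the germline lists had opposite signs, as did 59.0% of all tested genes in the class higher in experiment 1 and lower in experiment 2. Localized oocyte and germ plasm genes had 23 of 28 higher in experiment 1 and lower in experiment 2. Another 2 were higher and 2 lower in both (7.14% and 7.14%, against 10% and 20.8% of all genes). grk, the Egfr ligand gene of the oocyte, was one of the 2 higher (0.35 and 0.69). piRNA pathway genes had 24 of 27 in the same opposite class, and cyclins 11 of 12, and the genes on chromosome 4 had 40 of 41. The medians of the chromosome 4 genes were 1.08 and -1.51. CycT, a cyclin of transcription elongation, was the cyclin lower in both (-0.18 and -0.78). Among the siRNA and microRNA genes r2d2, the partner of Dicer-2, was the 1 of 10 higher in both (0.92 and 0.77), on 4 Bre1 fragments in experiment 1. That share was 10%, as for all genes. Of 14 genes of Dpp signalling in the germline niche 3 were higher and 0 lower in both (21.4% and 0.0%, against 10% and 20.8% of all genes). Among the 3 was the ligand gene gbb (0.43 and 1.36, on 3 Bre1 fragments in experiment 1, ratio of counts 2.16, 0.693 to 10.8). The counts of Dpp genes higher and lower in both became 4 and 3 after quantile normalization and 5 and 3 after upper quartile scaling. They were 4 and 3 with centring and 4 and 1 without the length trend. With centring, 1049 of all 5502 genes were higher and 1049 lower in both. Eggshell genes had 1 of 11 higher and 2 lower, ndl (-0.53 and -1.34) and fs(1)N (-0.34 and -1.40). The shares were 9.09% and 18.2%, near the 10% and 20.8% of all genes.

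The messenger RNAs of the antibody targets did not separate the libraries. Su(var)3-3, which encodes Lsd1, had 0.707 against 0.541 and 0.534 against 1.53 (ratios 0.15 and -0.72). Bre1 had 4.75 against 4.16 and 5.34 against 5.68 (0.16 and -0.08), and CoRest 3.88 against 8.03 and 3.20 against 2.39 (-0.89 and 0.31). Of 18 genes for Lsd1 and heterochromatin partners, 1 was higher in both, the gene of the heterochromatin protein HP1a (0.19 and 0.98), and 5 were lower. These were 5.56% and 27.8%, against 10% and 20.8% of all genes. Among the 5 were egg, a histone H3 methyltransferase gene (-0.21 and -1.14), its cofactor gene wde (-0.18 and -1.57) and Su(var)3-7 (-0.37 and -0.52). The HP1a gene and Su(var)3-7 lost their common sign under quantile, upper quartile and centred scaling, without the length trend, and in edgeR and DESeq2. Of 13 genes for Bre1, the Paf1 complex and H2B ubiquitin, 2 were higher and 1 lower in both. These were 15.4% and 7.69%, against 10% and 20.8% of all genes. The centromeric histone gene cid was the 1 of 6 histone variants higher in both (1.01 and 0.71), with 0 Bre1 fragments in experiment 1. That share was 16.7%, against 10% of all genes. Of 55 tested copies of the replication-dependent histone genes, 34 had a ratio of 0, as did 1.25% of all genes. In both experiments 1 copy was higher (1.82%, against 10% of all genes). Heat shock and chaperone genes had 3 of 20 higher and 5 lower in both (15% and 25%, against 10% and 20.8% of all genes). The full lists of fat body, hemocyte and gut genes had 1, 2 and 1 tested genes, 0 of them with a common sign, and no tRNA or nervous system gene was tested.

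Genes with a common sign differed in length from the rest. The median exon length was 2281.5 bases over all tested genes, 1527.5 over the 550 higher in both and 3668 over the 1143 lower in both. Of the 38 genes at least 2-fold higher, 32 had under 1500 bases of exon, against 28.01% of all tested genes, and their median was 1017 bases. In experiment 1 the median ratio of protein-coding genes went from 2.04 at up to 500 bases to -0.14 over 5000 bases, and in experiment 2 it lay between -0.69 and -0.48 in every length class. The share lower in both was 8.06% from 500 to 1000 bases and 44.0% over 5000 bases, and the share higher in both was 18.4% and 1.39%. Removing the trend on length from each experiment left both signs in place for 281 of the 550 genes and 476 of the 1143, and for all 38 and all 11 of the 2-fold genes. The part of length in the other calls was not tested.

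**Figure D4:**
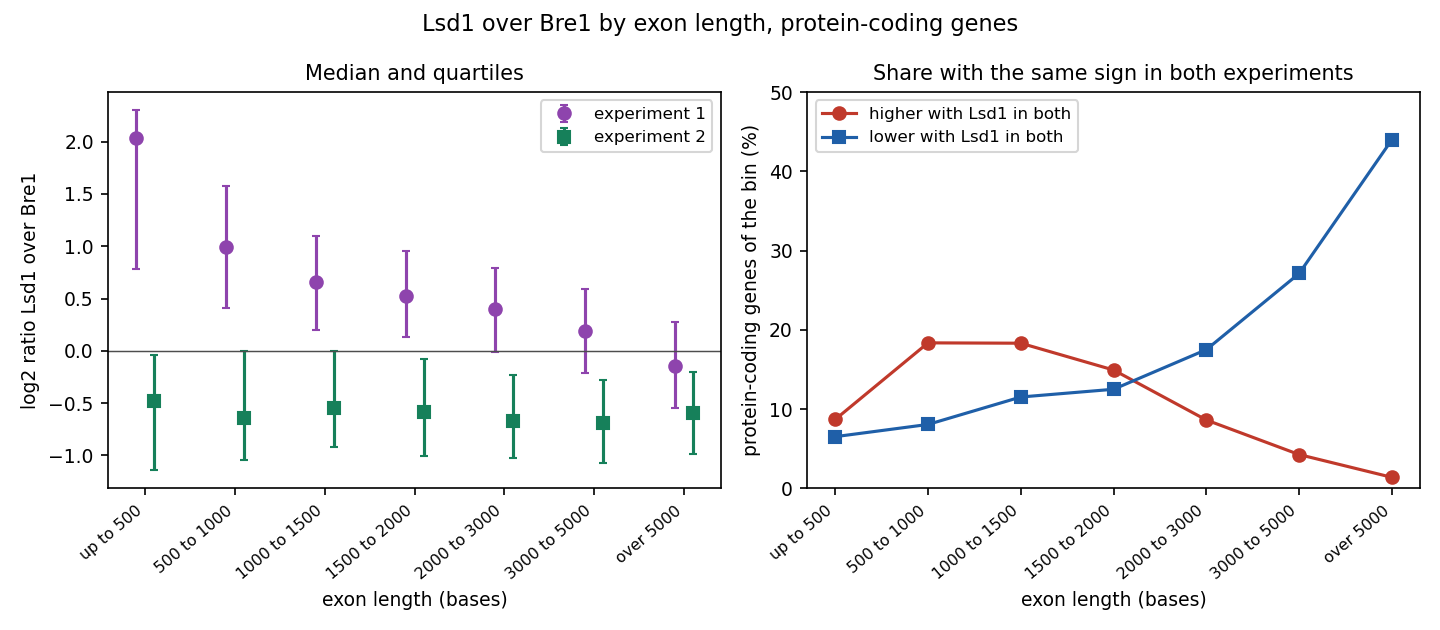
Left, median log2 ratio of Lsd1 over Bre1 with quartiles (bars) for protein-coding genes in 7 classes of exon length, experiment 1 in purple and experiment 2 in green. Right, percent of each class that was higher (red) or lower (blue) with Lsd1 in both experiments. The ratio of experiment 1 goes from 2.04 to -0.14 with length while that of experiment 2 stays between -0.69 and -0.48, and the share lower in both reaches 44.0% over 5000 bases.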

How the data were processed

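Per the submitters' processing notes, the build was dm6 and the tools were Cufflinks, SAMtools 0.1.18.0, TopHat and Bowtie2 2.0.6.0. No source used here names the program behind the experiment 2 tables. For experiment 1 the authors deposited FPKM per transcript with 95% limits and a coverage signal that entered no test, per the file headers. For experiment 2 the authors deposited RPKM, TPM (not used in any test) and read counts per gene, per the file headers. The quantification differed with the experiment, so a term for experiment also absorbs that difference.

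Transcript FPKM was summed per gene, and the experiments shared 17101 genes, of which 17021 matched on FlyBase identifier and 80 on symbol. Of these, 14 had no estimate in an Lsd1 or Bre1 library, and 17052 symbols were found in the RefSeq gene table. Nuclear ribosomal RNA was left out. Ratios, filter and scaling are given with the results. limma 3.58.1 (R 4.3.3, trended eBayes, experiment as block, Benjamini-Hochberg, 1 residual degree of freedom) was run on 4 libraries. The pairing comes from the labels, by which a lysate was divided among the antibodies; deviations of the libraries of an experiment correlated at 0.094 across genes. With all prior weight on the trend, a gene's SE comes from genes of like abundance.

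Experiment 1 fragments were worked out from each FPKM and its limits for genes with 1 transcript (whole within 0.05 for 83.8% of low values with Lsd1 and 80.0% with Bre1) and modelled otherwise, for depth and for edgeR 4.0.16 and DESeq2 1.42.0. These counts are no deposited values, so limma on log2 values was the main test. Genes named are the 10 coding and 8 other informative genes per direction with the largest smaller ratio, up to 3 members per direction of each of 37 lists, the antibody targets, and 10 genes picked after their values were seen (7SLRNA:CR42652, mt:lrRNA, snRNA:U11, RNaseP:RNA, lncRNA:Hsromega, osk, udd, CG13751, RpL23A and RpL27). Of these, not all are described, and 1 gene that the rule names is not reported here. Members, lists and tests were chosen with earlier results of these data known.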

Additional observations from a re-analysis of the deposited data

Results flagged for a closer look

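Intron reads of experiment 2 were used in no comparison. udd, which encodes a protein needed for ribosomal RNA transcription in germline stem cells, held 16579 intron reads with Lsd1, against 20 with Bre1 and 758 with IgG, the control, of which 122, 3 and 41 were unique. Scaled to 1e6 exon reads of the genes found in both experiments, nuclear ribosomal RNA left out, these were 10433, 2.73 and 87.9. Its exon ratios were 1.39 and 4.198, but of its 911 exon reads with Lsd1 in experiment 2 only 1 was unique, against 83 of 110 with Bre1, and its signs were not the same with unique reads.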

How the results depend on the processing

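Counts of genes higher and lower with Lsd1 in both experiments (550 and 1143), and at least 2-fold so (38 and 11), moved as follows. As deposited, without scaling, they were 95 and 24, and 22 and 2 at 2-fold. Quantile normalization gave 875 higher and 20 at 2-fold lower, upper quartile scaling 988 higher and 63 at 2-fold, and centring 1049 higher. No filter gave 940 and 2026. A value of at least 5 gave 237 and 255, 5 at 2-fold lower and 1 called gene. A mean of at least 10 gave 116 and 38, and 20 and 3 at 2-fold. Removing the length trend gave 965 higher and 25 at 2-fold. A pseudocount of 0.1 gave 68 and 73 at 2-fold and 3 called genes, and one of 5 gave 22 and 2. All 6 libraries gave 8 called genes, and limma without the trend 6. edgeR gave 950 higher, with 151 and 112 at 2-fold, and DESeq2 999 higher, with 153 and 95 and 2 called genes. With no replicate block 0 genes were called (17 at an unadjusted p under 0.05). Leaving out 1 library gave 0 to 53 called genes, 40 without Lsd1 of experiment 1, 53 without Lsd1 of experiment 2 and 0 without either Bre1 library. The lone Lsd1 or Bre1 library is then assumed to vary like the others. The fitted change turned for RNaseMRP:RNA (-0.082), Bre1 (-0.011) and Yp2 (-0.79) under quantile normalization, for CoRest as deposited (0.058) and without the length trend (0.041), for osk as deposited (0.088), for lncRNA:Hsromega in edgeR (-0.0246), and with unique reads for snRNA:U2:14B (0.27), 7SLRNA:CR42652 (-1.07) and RNaseP:RNA (-0.060). Leaving out 1 library or 1 whole experiment gave fitted changes of -2.23 to 4.82 for snoRNA:Psi28S-291, -4.002 to 0.28 for lncRNA:CR42862, -3.36 to 0.74 for Uhg4, -2.69 to 0.28 for scaRNA:MeU5-C46, -4.72 to 2.17 for snRNA:U2:38ABa, -4.37 to 2.33 for snRNA:U2:14B, -0.72 to 0.15 for Su(var)3-3, -0.996 to 0.42 for CoRest, -0.15 to 0.23 for Bre1, -0.10 to 1.26 for the HP1a gene, -1.55 to 0.28 for yl, -2.31 to 0.30 for RpL23, -0.023 to 2.35 for mt:CoII, -2.14 to 10.06 for 7SLRNA:CR42652, -5.80 to 1.46 for mt:lrRNA, -2.47 to 4.55 for snRNA:U11, -0.12 to 5.01 for RNaseP:RNA, -1.12 to 2.58 for lncRNA:Hsromega and -3.79 to 3.26 for osk. The cause was not tested. Depth limits genes with few Bre1 fragments in experiment 1 and few Lsd1 reads in experiment 2.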
